A study of Mus musculus with 7 samples.

Results

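Keratins are the intermediate filament proteins of epithelial cells, and the 8 keratin genes described here are Krt5, Krt7 and Krt8 of type II and Krt14, Krt15, Krt17, Krt18 and Krt19 of type I. They were taken as a named list, by gene symbol, out of 29267 genes in the RNA-Seq tables, of which 54 were keratin genes by symbol. The members were chosen by their TPM in these same libraries, which were known when the list was drawn up, so the levels and their ratios are a description and carry no test. The libraries came from reprogramming of OG2 mouse embryonic fibroblasts (MEFs), which carry a green fluorescent reporter under the Oct4 promoter (Oct4GFP). The cells had received retroviruses for Oct4, Klf4, c-Myc and Sox2 and grew in conventional mES medium or in the chemically defined 5C medium, and were then sorted by fluorescence.

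There were 7 libraries with 1 library per group, so no difference below has a replicate check. The sorted cells at passage 0 gave the libraries mES GFP+, mES GFP-, 5C GFP+ and 5C GFP-, named for the medium and the Oct4GFP fraction. At passage 20 there were 5C GFP+ (naive) and 5C GFP+ (primed) cells, which are 5C GFP+ cells moved to naïve or primed medium, and R1 ESC (primed), a mouse embryonic stem cell line in the primed state. The study reports that the cells in primed medium had lost fluorescence, although their label reads GFP+. Each library stands for a sorted population or a line, and no label tells how many cultures or clones it holds.

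Keratin filaments are built from pairs of 1 type I chain with 1 type II chain. Krt8 and Krt18 are the partners of simple epithelia and the earliest keratins of the mouse embryo, where they appear in the trophectoderm, and Krt7 and Krt19 join them in ducts, mesothelium and other simple epithelia. Krt5 and Krt14 are the partners of the basal layer of stratified epithelia, Krt15 is a further basal keratin, and Krt17 is known from skin appendages and injured epidermis. In fibroblasts the main intermediate filament is vimentin, and the passage of fibroblasts to epithelial cells is an early step of reprogramming.

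The expected counts of a library summed to between 6108252 and 11496615. Levels are given as TPM, which is the read count of a gene divided by its effective length and scaled so that all genes of a library add up to a fixed total. An interval of 95% beside a level or a ratio is exact and covers the counting of reads only. A gene counts as higher or lower here when log2(TPM + 1) differed by at least 1, that is 2-fold on this scale, among genes with at least 1 TPM in either library. A gene under 1 TPM in 1 library passes only through the other, so it can be called in 1 direction only. The same holds for the share over all genes. For genes without reads, the level of 3 counts served as the floor of a ratio, written as "at least". The defining markers of the sorted cells were checked. Nanog was at 697 TPM in mES GFP+ and 253 TPM in 5C GFP+ cells, against 17.1 and 120 TPM in their Oct4GFP- counterparts. Pou5f1 (Oct4) was at 3640 TPM in mES GFP- cells, its highest level, and reads of the retroviral copy were not told apart from those of the gene. The sum of 8 fibroblast markers was 496 TPM in mES GFP- and 240 TPM in 5C GFP- cells, and between 8.98 and 14.5 TPM in mES GFP+, 5C GFP+ and 5C GFP+ (naive) cells.

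The type II members lie in the keratin cluster of chromosome 15 and the type I members in that of chromosome 11, apart from Krt18 (coordinates of GENCODE M21 on GRCm38). Krt8 is at chr15:101996698-102004482 on the minus strand. Krt18, the only type I member on chromosome 15, is at chr15:102028180-102032027 on the plus strand, 23697 bases away. Krt5 is at chr15:101707070-101712898 and Krt7 at chr15:101411043-101430313. On chromosome 11, all on the minus strand, are Krt15 (chr11:100131758-100135928), Krt19 (chr11:100140810-100148665), Krt14 (chr11:100203162-100207548) and Krt17 (chr11:100256217-100261029). Of the 74-base windows of their transcripts, 5.32% of those of Krt5 also occurred in Krt6a, Krt6b or the predicted genes Gm5414 and Gm5478 and 5.82% of those of Krt14 in Krt16, while the other 6 members shared no window with another gene.

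The sequences before the starts of Krt8, Krt18 and Krt5 are shown because these genes include the pair that varied together and the member that stood apart from its partner. They come from the RefSeq promoter table (GRCm38.p6), which held 5 of the 8 members, without Krt15, Krt17 and Krt19. The windows of Krt7 and Krt14 lay inside the gene as GENCODE draws it and are not printed. The bases are 5′ to 3′ on the strand of the gene and stop at the RefSeq or GENCODE start, whichever comes first. Capitals mark the letters CACCC or their reverse complement GGGTG. They are Krt8 at chr15:102004483-102004592 (110 bases), Krt18 at chr15:102027966-102028179 (214 bases) and Krt5 at chr15:101712906-101713155 (250 bases).
Krt8: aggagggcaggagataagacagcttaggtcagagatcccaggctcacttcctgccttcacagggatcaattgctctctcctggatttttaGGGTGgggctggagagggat
Krt18: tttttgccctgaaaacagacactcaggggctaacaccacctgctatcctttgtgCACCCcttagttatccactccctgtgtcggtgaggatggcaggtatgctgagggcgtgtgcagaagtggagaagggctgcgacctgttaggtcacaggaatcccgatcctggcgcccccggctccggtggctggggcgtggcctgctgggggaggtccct
Krt5: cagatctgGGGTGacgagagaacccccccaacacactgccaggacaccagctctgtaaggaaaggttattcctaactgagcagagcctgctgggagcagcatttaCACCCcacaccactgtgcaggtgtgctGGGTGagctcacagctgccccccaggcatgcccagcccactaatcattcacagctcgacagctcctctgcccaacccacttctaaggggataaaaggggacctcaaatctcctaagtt
In the full window of 250 bases before the RefSeq start, CACCC occurred 3 times for Krt5, 2 times for Krt8, 1 of them past the printed bases, and 1 time for Krt18, counting both strands. It occurred in 51.3% of 27025 promoters of this length. TGANTCA (6.87% of promoters), GGGCGG (32.9%), TATAAA (13.0%) and AACCGGTT (0.122%) did not occur in these 3 windows. A match is a description of letters, not a binding site.

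Krt8, the type II keratin of simple epithelia, was the highest member in 6 of the 7 libraries. Its level was 3.82 TPM in mES GFP+, 748 in mES GFP-, 24.6 in 5C GFP+, 221 in 5C GFP-, 9.54 in 5C GFP+ (naive), 434 in 5C GFP+ (primed) and 197 TPM in R1 ESC (primed). It was thus low in the mES GFP+ and naïve cells, intermediate in 5C GFP+ cells and high in the Oct4GFP- and primed cells. In mES GFP- cells it ranked 142 among all genes. In the order of its levels every neighbouring pair differed beyond the counting interval, the closest being 5C GFP- cells over R1 ESC (primed) with a ratio of 1.12 (1.04 to 1.21).

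Krt18, the type I partner of Krt8, followed it in most libraries. It was at 1.36 TPM in mES GFP+, 454 in mES GFP-, 48.2 in 5C GFP+, 91.8 in 5C GFP-, 0.48 in 5C GFP+ (naive), 361 in 5C GFP+ (primed) and 129 TPM in R1 ESC (primed). The lowest values rest on 6 counts in mES GFP+ and 3 counts in naïve cells, and their ratio of 2.83 (0.606 to 17.5) did not leave out 1. Across the 7 libraries the Pearson correlation of Krt8 and Krt18 on log2(TPM + 1) was 0.94, the highest among the members, with libraries of shared origin and medium among the points.

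Krt19, a type I keratin without the usual tail, reached 643 TPM in mES GFP- cells, where only Krt8 was higher among the members. Elsewhere it was at 0.42 TPM in mES GFP+, 22.7 in 5C GFP+, 102 in 5C GFP-, 4.24 in 5C GFP+ (naive), 54.5 in 5C GFP+ (primed) and 8.93 TPM in R1 ESC (primed). Unlike Krt8 and Krt18, it was lower in R1 ESC (primed) than in 5C GFP+ cells, by 2.54-fold (1.75 to 3.77).

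Krt7, the type II keratin of ducts and mesothelium, was at 177 TPM in mES GFP- cells and no higher than 14.5 TPM in any other library. The values were 0.75 TPM in mES GFP+, 2.78 in 5C GFP+, 4.68 in 5C GFP-, 0.43 in 5C GFP+ (naive), 14.5 in 5C GFP+ (primed) and 4.59 TPM in R1 ESC (primed). 5C GFP- cells and R1 ESC (primed) did not differ beyond counting error, with a ratio of 1.02 (0.708 to 1.48). The effective length that RSEM assigned to Krt7 was 2301 bases in mES GFP-, 2800 in 5C GFP- and 3982 to 4021 bases in the other libraries, so its reads were spread over transcripts of different length. The counting intervals of its ratios do not cover this.

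**Figure D1:**
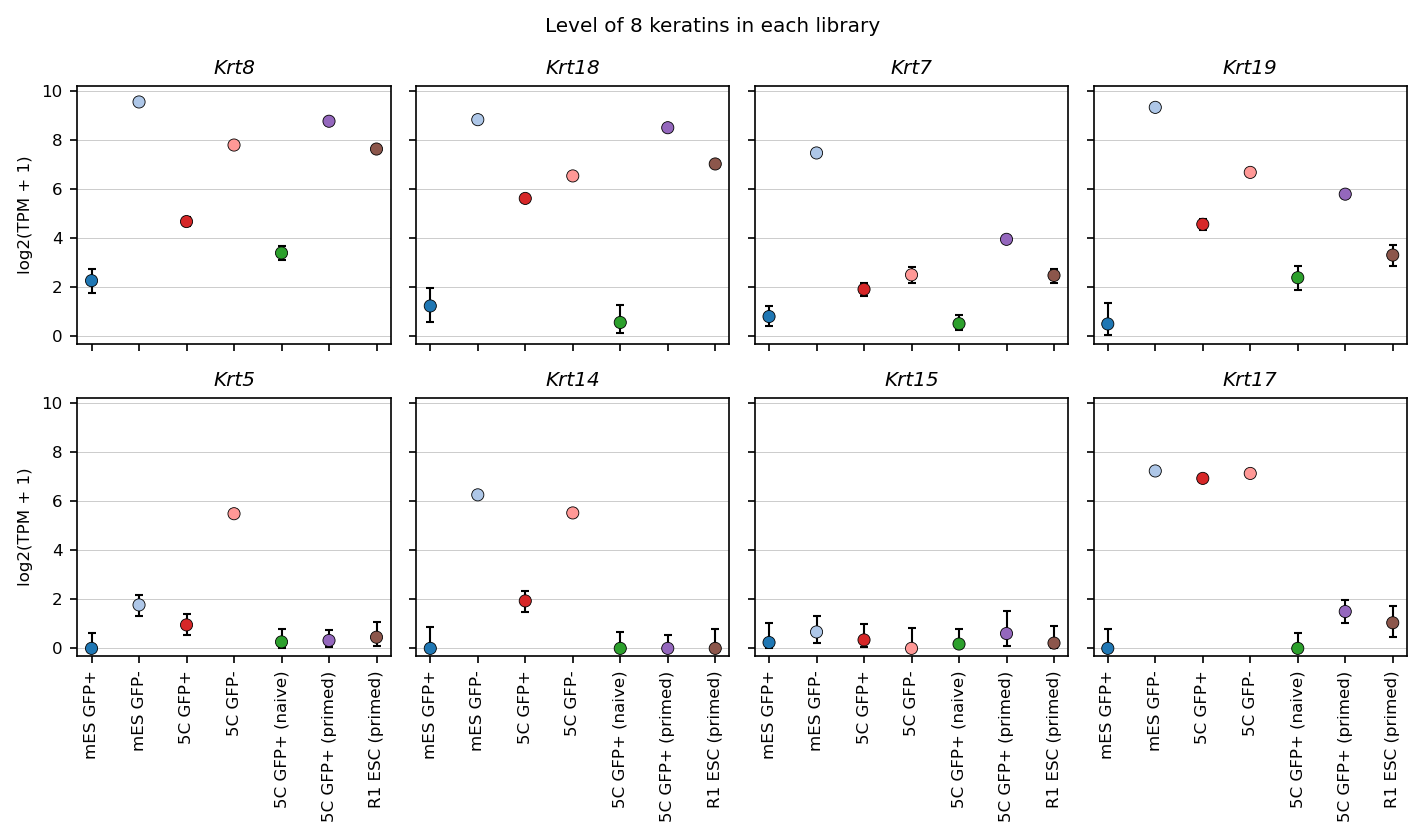
Level of the 8 members in each library as log2(TPM + 1), 1 point per library with its exact 95% counting interval. Krt8 and Krt18 are high in the Oct4GFP- and primed libraries, Krt17 in mES GFP-, 5C GFP+ and 5C GFP- cells only, and Krt5 in 5C GFP- cells only, while Krt15 stays under 1 TPM.

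Krt17, the type I keratin of injured epidermis and skin appendages, had a different order. It was at 149 TPM in mES GFP-, 121 in 5C GFP+ and 139 TPM in 5C GFP- cells, and without a read in mES GFP+ and 5C GFP+ (naive) cells. The primed libraries held 1.83 TPM in 5C GFP+ (primed) and 1.06 TPM in R1 ESC (primed). Krt17 was the highest member in 5C GFP+ cells and nowhere else. The levels of both Oct4GFP- libraries gave a ratio of 1.07 (0.979 to 1.18), mES over 5C medium, and that of 5C GFP- over 5C GFP+ cells was 1.15 (1.05 to 1.26). With libraries rescaled to the median gene this last difference turned over, to 0.02 on log2(TPM + 1) in favour of 5C GFP+ cells.

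Krt5 and Krt14, the basal pair, did not go together. Krt14 was at 75.3 TPM in mES GFP-, 44.8 in 5C GFP- and 2.82 TPM in 5C GFP+ cells, and had no read in the remaining 4 libraries. Krt5 was at 43.8 TPM in 5C GFP- cells but 2.41 TPM in mES GFP- and 0.94 TPM in 5C GFP+ cells, and rested on 0 to 3 counts in the others. Krt5 was the only member whose highest level was in 5C GFP- cells. Krt15 was between 0 and 0.59 TPM, with 11 counts in all libraries together, and passed no filter in any comparison.

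The ratio of partners gives the balance within a library. Krt18 over Krt8 was 1.96 (1.66 to 2.32) in 5C GFP+ cells, the only library in which the type I chain had the higher TPM. It was 0.356 in mES GFP+, 0.606 in mES GFP-, 0.415 in 5C GFP-, 0.0503 in 5C GFP+ (naive), 0.833 in 5C GFP+ (primed) and 0.654 in R1 ESC (primed), each with an interval below 1. Krt14 over Krt5 was 31.3 (20.9 to 51.5) in mES GFP- cells, 1.02 (0.875 to 1.20) in 5C GFP- cells and 3.0 (1.47 to 6.91) in 5C GFP+ cells, so the basal pair was even within counting error in 5C GFP- cells. Over all 5 type I and 3 type II members, the ratio of summed TPM was 6.87 in 5C GFP+ cells and lay between 0.429 and 1.42 in the other 6 libraries. Over all keratin genes it was 6.76 in 5C GFP+ cells, but 1.498 instead of 0.429 in mES GFP+ and 1.31 instead of 0.477 in naïve cells, so the direction in these keratin-poor libraries depends on the genes summed. With sums of counts in place of TPM it was 4.89 in 5C GFP+ cells, and 0.986 and 1.03 instead of 1.42 and 1.40 in mES GFP- and 5C GFP- cells.

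All 54 keratin genes together summed to 2642 TPM in mES GFP- cells and to 13.2 TPM in mES GFP+ cells, 200-fold apart. The sums were 263 TPM in 5C GFP+, 699 in 5C GFP-, 23.7 in 5C GFP+ (naive), 877 in 5C GFP+ (primed) and 350 TPM in R1 ESC (primed). The make-up differed as well as the sum. Krt8 and Krt18 held 49.5% and 41.2% of keratin TPM in 5C GFP+ (primed) cells, and 56.3% and 36.8% in R1 ESC (primed). In 5C GFP+ cells Krt17 held 45.8% and Krt18 18.3%, and in mES GFP- cells Krt8 held 28.3% and Krt19 24.3%. The 8 members covered 84.6% to 98.8% of keratin TPM in the libraries with sums above 200 TPM, but 49.5% in mES GFP+ and 63.5% in 5C GFP+ (naive) cells. In bulk RNA, fewer cells with keratin and less keratin RNA per cell cannot be told apart.

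**Figure D2:**
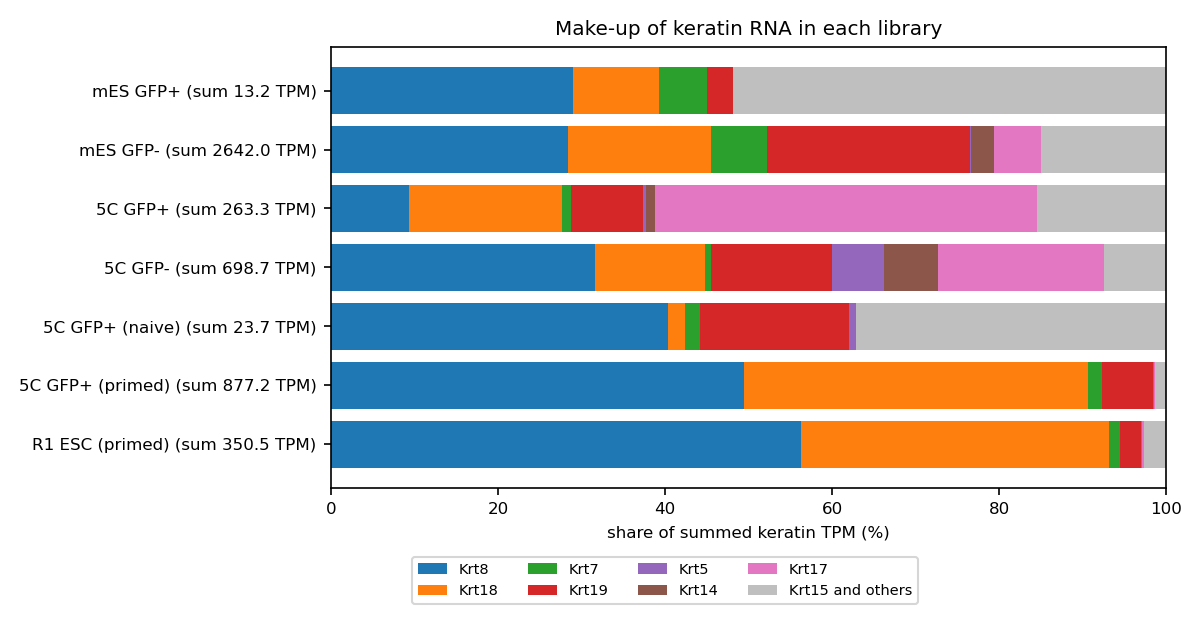
Share of each member in the summed TPM of all keratin genes, 1 bar per library, with the sum beside the library name. Krt17 takes 45.8% in 5C GFP+ cells, and Krt8 with Krt18 take most of the bar in both primed libraries.

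Within mES medium, the sort separated keratin-poor from keratin-rich cells. All 7 members that passed the filter were lower in mES GFP+ than in mES GFP- cells, where 28.8% of all genes tested were lower and 17.9% higher. Krt5, Krt7, Krt14, Krt17 and Krt19 passed only through mES GFP- cells, so they could not have been called higher. The median difference of the members was -7.23 on log2(TPM + 1), against -0.15 over all genes. Krt8 was 196-fold lower (129 to 313), Krt7 235-fold (128 to 494), and Krt17 at least 244-fold. Krt19, with 2 counts in mES GFP+ cells, was 1530-fold lower with a wide interval of 419 to 12517. The fibroblast markers were also lower in mES GFP+ cells, 8 of 8, and so were 6 of 7 primitive endoderm markers without keratins that passed. Their part in the keratin result was not tested.

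Within 5C medium the gap was smaller and limited to part of the members. Of 7 that passed, 4 were lower in 5C GFP+ than in 5C GFP- cells and 0 were higher, where 22.6% of all genes were lower and 8.45% higher. The median difference was -2.11 for the members and -0.25 over all genes. Krt5 was 46.6-fold lower (26.6 to 97.2), Krt14 15.9-fold (10.7 to 25.0), Krt8 8.99-fold (7.85 to 10.3) and Krt19 4.48-fold (3.71 to 5.43). Krt18, at 1.91-fold (1.66 to 2.18), and Krt7, at 1.68-fold (1.16 to 2.46), lay in the same direction without passing 2-fold. The summed fibroblast markers were at 9.95 TPM in 5C GFP+ and 240 TPM in 5C GFP- cells, and 7 of 8 markers passed the filter with 6 lower. Without keratins, 5 of 6 primitive endoderm markers and 5 of 6 basal markers that passed were also lower in 5C GFP+ cells. Their part was not tested.

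Between the media, the sorted Oct4GFP+ cells differed in every member that passed. In 5C GFP+ over mES GFP+ cells 6 of 6 members were higher, where 13.7% of all genes were higher and 13.5% lower, with medians of 3.23 and -0.06. Krt7, Krt14, Krt17 and Krt19 passed only through 5C GFP+ cells and could not have been called lower, unlike Krt8 and Krt18. Krt17 was at least 198-fold higher, Krt18 35.4-fold (16.1 to 97.3), Krt8 6.43-fold (4.16 to 10.5), Krt7 3.71-fold (1.89 to 8.11) and Krt14 at least 4.18-fold. Krt19 was 54.0-fold higher (14.5 to 446), on 2 counts in mES GFP+ cells. Krt5, under the filter, was at 0.94 TPM against no read. Among fibroblast markers, 1 was higher and 2 were lower of 6 that passed, and the sums were 9.95 TPM in 5C GFP+ and 14.5 TPM in mES GFP+ cells. Msln was at 62.8 TPM in 5C GFP+ and 1.91 TPM in mES GFP+ cells, and the 7 basal markers without keratins summed to 164 and 104 TPM. Their part was not tested.

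The Oct4GFP- cells differed in the opposite direction for most members. In 5C GFP- over mES GFP- cells 4 of 7 members were lower and 1 was higher, where 10.1% of all genes were lower and 9.68% higher, with medians of -1.76 and 0.03. Krt7 was 37.7-fold lower (28.9 to 50.1), Krt19 6.33-fold (5.75 to 6.98), Krt18 4.94-fold (4.49 to 5.44) and Krt8 3.39-fold (3.20 to 3.58). Krt5 was the exception, 18.2-fold higher (12.1 to 30.0). Krt14, 1.68-fold lower (1.44 to 1.95), and Krt17 did not pass. Msln, a mesothelial surface protein whose cells also make Krt7, Krt8, Krt18 and Krt19, was at 879 TPM in mES GFP- and 120 TPM in 5C GFP- cells. The 5 mesothelium markers without keratins summed to 892 and 128 TPM, mostly from Msln. Of 4 that passed, 2 were lower in 5C GFP- cells and 1 was higher. This was Wt1, at 3.34 against 0.98 TPM. Upk3b was at no more than 0.41 TPM in any library, and both were chosen after their values were seen. Fibroblast markers were lower in 6 of 8 and higher in 1, Thy1, at 53.3 TPM in 5C GFP- against 8.73 TPM in mES GFP- cells. Without keratins, 5 of 7 primitive endoderm markers were lower and 1 was higher, Lama1, at 64.61 against 20.25 TPM. Of 6 trophoblast markers without keratins, 5 were lower and 0 higher. Thy1 and Lama1 were named after their values were seen. The part of these markers and of Msln was not tested.

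**Figure D3:**
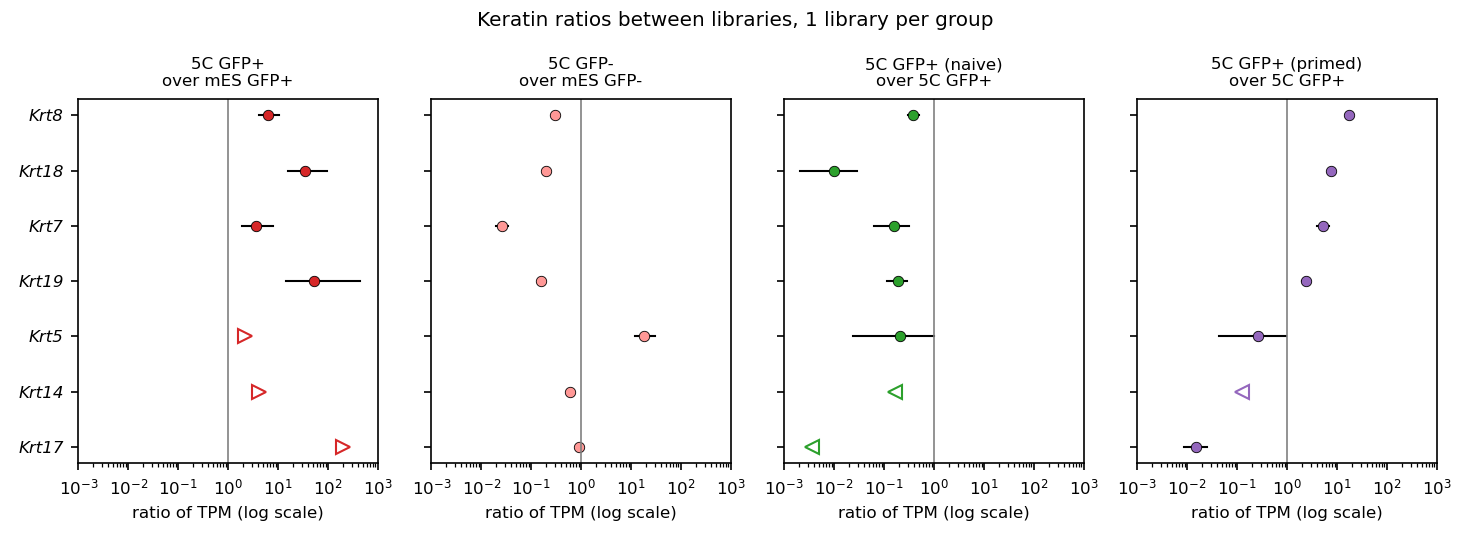
Ratio of TPM of 7 members in 4 comparisons on a log axis, with exact 95% counting intervals as lines. Open triangles are bounds from the 3-count floor, and the grey line marks a ratio of 1. Members lie to the right of the line in 5C GFP+ over mES GFP+ cells, and to the left in naïve over 5C GFP+ cells.

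After conversion in naïve or primed medium, at passage 20, Krt7, Krt8, Krt18 and Krt19 differed from 5C GFP+ cells in opposite directions, while Krt14 and Krt17 were lower in both. The medium and the passages cannot be told apart. In 5C GFP+ (naive) cells 6 of 6 members were lower than in 5C GFP+ cells, where 17.5% of all genes were lower, with medians of -2.06 and -0.10. Krt17 was at least 281-fold lower, Krt18 100.4-fold (34.2 to 490, on 3 counts), Krt7 6.47-fold (3.14 to 15.9), Krt19 5.35-fold (3.43 to 8.71), Krt8 2.58-fold (1.99 to 3.37) and Krt14 at least 5.94-fold. Msln was at 0.83 TPM in the naïve cells, and 5 of 7 surface markers of simple epithelium were lower than in 5C GFP+ cells. Against mES GFP+ cells, 2 of 3 members that passed were higher in the naïve cells and 0 lower, beside 2.49% and 6.27% of all genes, with medians of 1.13 and -0.16. These were Krt8, 2.50-fold (1.54 to 4.21), and Krt19, 10.1-fold (2.47 to 87.6).

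In 5C GFP+ (primed) cells the members split by kind. Of 6 that passed, 4 were higher than in 5C GFP+ cells and 2 were lower, where 13.7% of all genes were higher and 16.1% lower, with medians of 1.63 and 0.06. The simple-epithelium members were higher, Krt8 17.7-fold (15.5 to 20.2), Krt18 7.50-fold (6.72 to 8.38), Krt7 5.21-fold (3.995 to 6.95) and Krt19 2.40-fold (1.98 to 2.93). Krt17 was 65.9-fold lower (41.0 to 114) and Krt14 at least 7.91-fold lower. Primitive endoderm markers without keratins summed to 185 TPM in the primed cells and 29.8 TPM in 5C GFP+ cells. Of 6 that passed, 5 were higher and 1 was lower. Foxa2, also on the list of primed markers, and Sox17 were at 82.9 and 60.4 TPM in the primed cells. Lama1 was the lower one, at 1.09 TPM against 26.4 TPM in 5C GFP+ cells. These genes were named after their values were seen. Fibroblast markers were higher in 7 of 8, with sums of 69.8 and 9.95 TPM. Their part in the higher Krt8 and Krt18 was not tested. The 5C GFP+ comparisons share that library, as do those with mES GFP+ cells.

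Compared with R1 ESC (primed), 4 of 5 members that passed were higher in 5C GFP+ (primed) cells and 0 lower, where 2.30% of all genes were higher and 5.09% lower, with medians of 1.47 and -0.03. They were Krt19, 6.10-fold (4.33 to 8.84), Krt7, 3.16-fold (2.45 to 4.16), Krt18, 2.80-fold (2.57 to 3.05), and Krt8, 2.20-fold (2.07 to 2.34). Krt17 had a ratio of 1.73 (0.652 to 5.37). Fibroblast markers were lower in 6 of 8, and primitive endoderm markers without keratins had sums of 185 and 180 TPM, with 0 of 6 past 2-fold in either direction.

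Of the other 46 keratin genes, 7 reached 5 TPM in a library and 12 had no read at all. Krt6a and Krt16, the pair that joins Krt17 in injured epidermis, were at 99.04 and 32.6 TPM in mES GFP-, 19.9 and 9.57 TPM in 5C GFP- and 2.12 and 1.73 TPM in 5C GFP+ cells. Krt17 was thus high in 5C GFP+ cells without comparable levels of either. Krt80, a type II keratin of many epithelia, was at 215 TPM in mES GFP- and 9.78 TPM in 5C GFP- cells. Krt6b (10.6 TPM), Krt13 (12.2 TPM) and Krt20 (10.4 TPM) also had their highest level in mES GFP- cells. Krt6a and Krt6b share 38.9% and 40.1% of their 74-base windows with close copies, so the split of reads between them is uncertain. Krt42, a type I gene 1852 bases from Krt17, was highest in 5C GFP+ cells at 26.7 TPM, 9.64-fold (5.37 to 19.0) over mES GFP+ and 26.7-fold (11.2 to 83.2) over 5C GFP- cells.

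**Figure D4:**
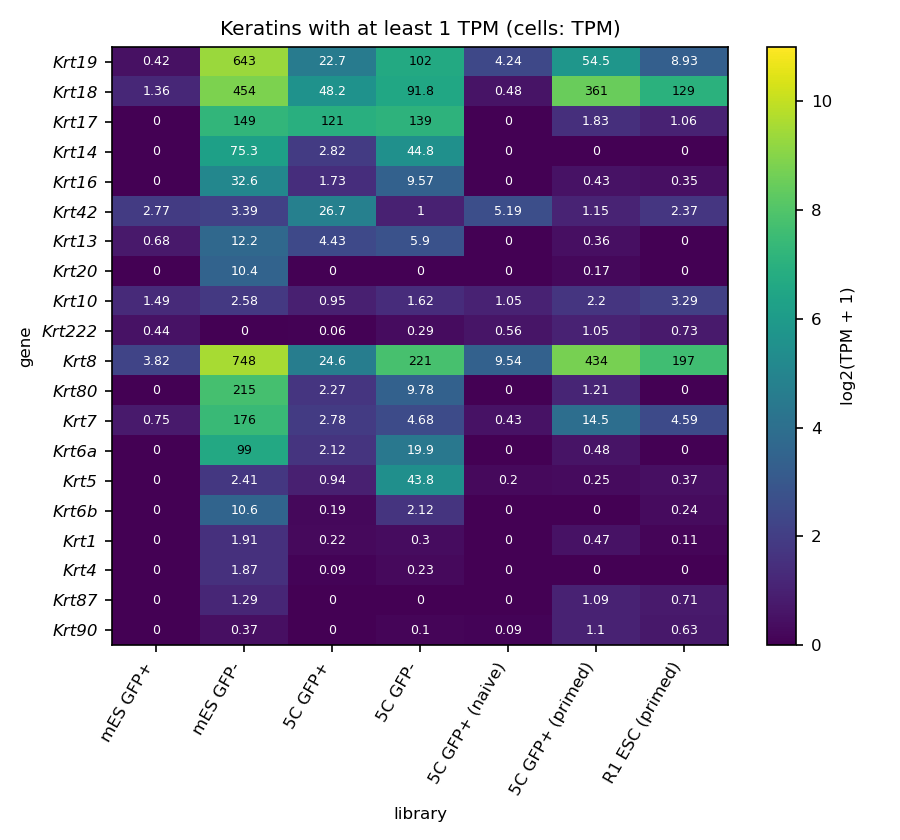
TPM of the 20 keratin genes that reached 1 TPM in a library, type I above type II, coloured by log2(TPM + 1). The mES GFP- column holds the most keratins above 10 TPM, 12, and the mES GFP+ column holds 0.

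Keratin filaments end at desmosomes and hemidesmosomes, and 17 of 18 listed genes of these junctions and linkers were in the tables. In mES GFP+ against mES GFP- cells 14 of 16 that passed were lower and 0 higher (28.8% and 17.9% of all genes), and in 5C GFP- against mES GFP- cells 12 of 17 were lower and 0 higher (10.1% and 9.68%). In 5C GFP+ over mES GFP+ cells 8 of 14 were higher and 1 lower (13.7% and 13.5% of all genes), and in the naïve over 5C GFP+ cells 11 of 14 were lower and 1 higher, where 17.5% of all genes were lower. The primed cells departed from this, with 3 of 15 anchors higher and 7 lower than in 5C GFP+ cells (13.7% and 16.1% of all genes). Within 5C medium 6 of 16 were lower in Oct4GFP+ cells and 1 higher (22.6% and 8.45% of all genes). In primed cells against R1 ESC (primed) 2 of 13 were higher and 0 lower (2.30% and 5.09%), and in naïve against mES GFP+ cells 0 of 11 were higher and 1 lower (2.49% and 6.27%).

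Itgb4, the hemidesmosome integrin subunit, was at 555 TPM in mES GFP-, 159 in 5C GFP-, 30.3 in 5C GFP+ and 1.95 to 3.39 TPM in the other 4 libraries. It was 8.94-fold lower (7.34 to 10.9) in primed than in 5C GFP+ cells, the reverse of Krt8. Perp, a desmosomal membrane protein, was at 68.0 TPM in primed and 71.4 TPM in 5C GFP+ cells, with a ratio of 0.952 (0.860 to 1.05). Jup (plakoglobin), which links desmosomal cadherins to desmoplakin, was 4.24-fold higher (3.87 to 4.66) in 5C GFP+ than in mES GFP+ cells and 2.94-fold lower (2.77 to 3.12) in primed than in 5C GFP+ cells.

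**Figure D5:**
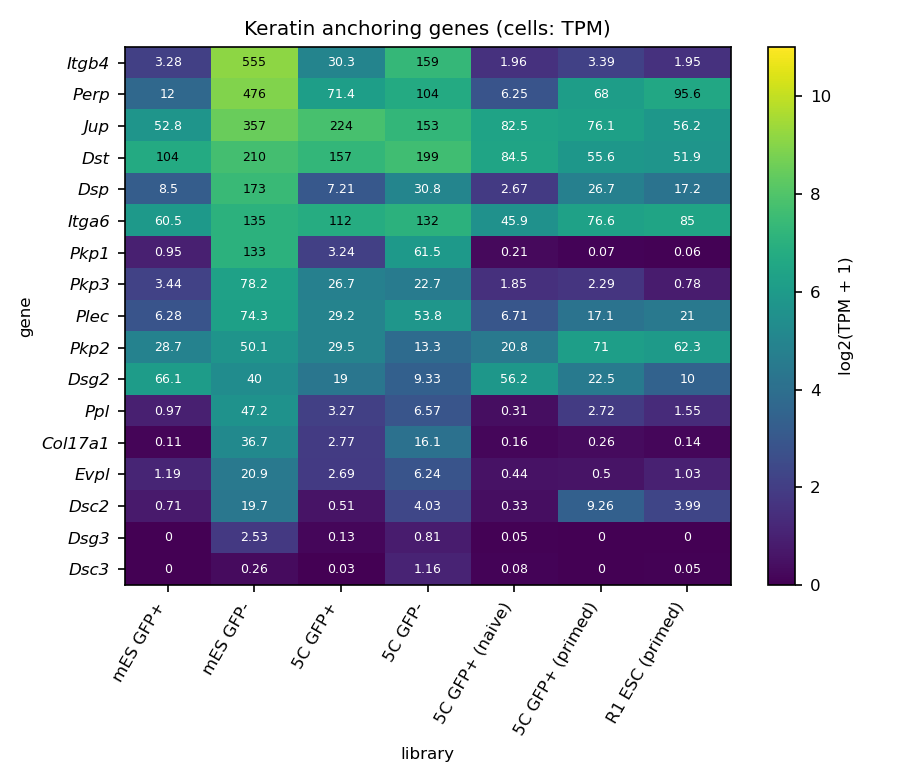
TPM of 17 genes of desmosomes, hemidesmosomes and filament linkers in each library, ordered by highest level and coloured by log2(TPM + 1). The mES GFP- column is the highest for most genes, and Itgb4 is at 1.95 to 3.39 TPM in both primed libraries, the naïve and the mES GFP+ cells.

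Regulators of epithelial genes were counted in the same way, with 15 on the list. In 5C GFP+ over mES GFP+ cells 5 were higher and 3 lower of 14 that passed, beside 13.7% and 13.5% of all genes. They were 4 and 6 of 14 in mES GFP+ over mES GFP- cells (17.9% and 28.8% of all genes), and 5 and 3 of 14 in 5C GFP+ over 5C GFP- cells (8.45% and 22.6%). In 5C GFP- over mES GFP- cells 0 were higher and 5 lower of 15 (9.68% and 10.1%). Against 5C GFP+ cells, 3 were higher and 6 lower of 14 in naïve cells, where 17.5% of all genes were lower, and 1 was higher and 7 lower of 13 in primed cells (13.7% and 16.1%). Several of these counts lie near the share over all genes. Elf3, an epithelial ETS factor, was at 175 TPM in mES GFP+ and 97.2 TPM in naïve cells, the libraries poorest in keratin, and at 3.68 to 67.0 TPM elsewhere. Klf5 was at 126 to 141 TPM in mES GFP+, 5C GFP+ and naïve cells and at 13.3 to 29.4 TPM in the others. Esrp1, an epithelial splicing factor, was at 0.82 TPM in mES GFP+ and 0.92 TPM in naïve cells and at 27.2 to 88.5 TPM in the other 5 libraries, and so was low where Krt18 was low. Trp63 (p63), the master regulator of basal epithelium and chosen here after its values were seen, did not exceed 2.19 TPM, in 5C GFP- cells.

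The genes closest in pattern to each member were sought by Pearson correlation of log2(TPM + 1) over the 7 libraries among 11745 genes with at least 10 TPM in some library. With so few points, between 118 and 676 genes reached a correlation of 0.9 with a member. Nearest to Krt14 was Col17a1 (r = 0.996), the hemidesmosomal collagen, at 36.7 TPM in mES GFP-, 16.1 in 5C GFP-, 2.77 in 5C GFP+ and 0.11 to 0.26 TPM in the other libraries. Nearest to Krt17 were Zfp36 (0.99), Tnfsf13 (0.99) and Fos (0.99), and Fos, an immediate early gene, was at 815 TPM in mES GFP-, 821 in 5C GFP-, 228 in 5C GFP+ and 1.33 to 9.05 TPM in the other libraries. Krt8 was closest to Car11, Vps37c and Prmt2, Krt18 to Ap2b1, Rab24 and Marveld3, and Krt19 to Tbc1d22a, Cirbp and Kdm6b. For Krt7 they were Suox, Scel and Ehd4, and for Krt5 Chl1, Eln and Pi16.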

How the data were processed

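RNA from 7 mouse libraries, 1 per group, was made into TruSeq libraries from total RNA by the authors and quantified with RSEM and Bowtie on mm10, per the labels (the submitters' processing notes give no versions). The deposited expected counts are RSEM's estimates of reads per Ensembl gene, without normalization. The deposited TPM are those counts per effective length, which the authors scaled to a fixed total per library. The deposited FPKM are counts per length and mapped fragments, used only as an alternative. Gene symbols were matched for 28756 of 29267 identifiers. No spread between replicates could be estimated, so no test was run and no p-value is given.

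Samples were grouped by title, and 8 comparisons were made. Differences were taken as log2(TPM + 1), which understates changes of low genes. Ratios of TPM carry exact conditional (Clopper-Pearson) 95% intervals from counts rounded to whole numbers, and levels carry exact Poisson intervals, both for counting error only. The ratio intervals and the 2-fold calls were checked on simulated data, and the intervals of levels were not. The simulated counts followed the same counting model as the intervals, without error in read assignment or spread between libraries. Planted changes were larger than 2-fold. The check therefore covers the calculation only, not the accuracy of calls in these libraries. A gene was called at 2-fold with at least 1 TPM in either library. The members and all gene lists were chosen with earlier results of these data known. By rule, the text names all members, the 3 genes of each other list with the highest level, other keratins with at least 5 TPM, and the 3 genes closest in pattern to each member with at least 10 TPM. The other lists held intermediate filaments, keratin anchors, epithelial regulators, and markers of simple, basal and suprabasal epithelium, mesothelium, trophoblast, primitive endoderm, fibroblasts, and pluripotent, naïve and primed cells. Alternatives were a pseudocount of 0.1, a minimum of 5 TPM, no minimum, FPKM, rescaling to the median ratio, counts in place of TPM for the type ratio, and, added after the data were seen, CPM (counts over the library total). The scripts ran on scipy 1.17.1, pandas 2.3.3 and numpy 2.4.6 under Python 3.11.15, with figures by matplotlib 3.10.9.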

Additional observations from a re-analysis of the deposited data

Results flagged for a closer look

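The difference between 5C and mES medium had opposite signs in Oct4GFP+ and Oct4GFP- cells and passed 2-fold in both for 4 members. Krt14 (1.93 and -0.74) and Krt17 (6.93 and -0.10) also had opposite signs, without passing 2-fold in Oct4GFP- cells. This opposition was not tested, with 1 library in each of the groups. On log2(TPM + 1), 5C over mES medium was 1.11 in Oct4GFP+ and -4.97 in Oct4GFP- cells for Krt7, and 2.41 and -1.76 for Krt8. For Krt18 it was 4.38 in Oct4GFP+ and -2.29 in Oct4GFP- cells, and for Krt19 it was 4.06 and -2.65.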

How the results depend on the processing

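Of 96 recomputed counts of members past 2-fold, 93 stayed within 1.5 times the reported count. This allowance is wide for such small counts. With a minimum of 5 TPM, the members higher in 5C GFP+ than in mES GFP+ cells went from 6 to 4. They were 5 with FPKM and 7 with CPM. Those lower in naïve than in 5C GFP+ cells also went from 6 to 4 with a minimum of 5 TPM. The 3 counts beyond the allowance were as follows. With a minimum of 5 TPM, the members lower in primed than in 5C GFP+ cells went from 2 to 1, and those higher in naïve than in mES GFP+ cells from 2 to 1. With a pseudocount of 0.1, 1 member instead of 0 was lower in naïve than in mES GFP+ cells. The cause was not tested. Of 212 recomputed member differences, 208 moved by less than their counting interval, and 0 of those called changed sign. For members with few or no reads in a library this interval is very wide or open, so the check could hardly flag them. With a pseudocount of 0.1, Krt17 in 5C GFP+ over mES GFP+ cells and Krt14 in mES GFP+ over mES GFP- cells moved further than Krt7 below. Both were still counted among the 208. The other 4 were Krt7 in mES GFP+ over mES GFP- cells with a pseudocount of 0.1 (-7.70), and Krt8 (-2.89), Krt17 (0.02) and Krt18 (-0.69) in 5C GFP+ over 5C GFP- cells with median-ratio rescaling, which shifts every gene there by 0.23 on the log2 scale, and by 0.15, 0.12 and 0.17 in mES GFP+ over mES GFP-, naïve over 5C GFP+ and naïve over mES GFP+ cells. With counts in place of TPM, which leaves out gene length, the type I to type II ratio was 0.986 in mES GFP-, 4.89 in 5C GFP+, 1.03 in 5C GFP-, 0.307 in naïve, 0.669 in primed cells and 0.506 in R1 ESC (primed).

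No paired analysis was possible because each group has 1 library, and for the same reason none was left out. Depth limits Krt15 and the Krt5, Krt14, Krt17, Krt18 and Krt19 values that rest on few reads: 3 counts were worth between 0.426 and 0.679 TPM for these genes in mES GFP+ cells, so levels under these are read as bounds or rest on 1 or 2 counts.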

Other observations

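Other intermediate filament genes were also measured. Vim (vimentin), the filament protein of mesenchymal cells, was at 2209 TPM in mES GFP- and 2468 TPM in 5C GFP- cells, with 335 TPM in mES GFP+, 333 in 5C GFP+, 637 in 5C GFP+ (naive), 524 in 5C GFP+ (primed) and 953 TPM in R1 ESC (primed). It was thus higher in the Oct4GFP- than in the Oct4GFP+ cells of either medium, and at nearly the same level in mES GFP+ and 5C GFP+ cells. Lmna (lamin A/C), a nuclear filament gene of differentiated cells, was at 383 TPM in mES GFP-, 315 in 5C GFP- and 139 TPM in 5C GFP+ cells, and at 17.3 to 40.2 TPM in the other 4 libraries. Lmnb1 (lamin B1) was lowest in mES GFP- cells at 117 TPM and at 264 to 340 TPM in the other libraries. The list held 15 genes. In 5C GFP+ over mES GFP+ cells 4 were higher and 2 lower of 13 that passed (13.7% and 13.5% of all genes). In mES GFP+ over mES GFP- cells 5 were higher and 5 lower of 13 (17.9% and 28.8% of all genes).

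For the differentiated layers of stratified epithelium, the summed markers were highest in mES GFP- cells. Without keratins, the 6 genes of this list summed to 175 TPM in mES GFP- and 37.9 TPM in 5C GFP- cells and to 1.72 to 15.5 TPM elsewhere. Sprr1a, a cornified envelope precursor, made 141 TPM of this in mES GFP- and 11.2 TPM in 5C GFP- cells. Others had another order, and Krtdap was highest in 5C GFP- cells (23.1 TPM, against 15.6 TPM in mES GFP- cells) and Lor, chosen after its values were seen, in primed cells (7.17 against 1.99 TPM). The 7 basal markers without keratins summed to 994 TPM in mES GFP- and 336 TPM in 5C GFP- cells, and to 37.3 to 164 TPM in the other libraries. The surface markers of simple epithelium had sums of 564.2 TPM in mES GFP+, 928 in mES GFP-, 1012 in 5C GFP+, 573 in 5C GFP-, 567 in naïve and 1207 TPM in primed cells, with 719 TPM in R1 ESC (primed). In mES GFP+ against mES GFP- cells 5 of 7 were lower and 1 was higher (28.8% and 17.9% of all genes). Among the lower was Cldn6 at 11.1 against 166 TPM, and the higher was Cdh1 (E-cadherin) at 295 against 124 TPM. Cdh1 and Epcam made up most of the sum in mES GFP+ cells, with Epcam at 208 TPM. The trophoblast markers without keratins summed to 98.7 TPM in mES GFP+, 31.0 in mES GFP-, 37.7 in 5C GFP+ and 12.8 TPM in 5C GFP- cells. The sums were 75.6 TPM in naïve cells, 88.8 in primed cells and 126 TPM in R1 ESC (primed). Most of the larger sums came from single genes. Tfap2c was at 86.9 TPM in mES GFP+ and 58.4 TPM in naïve cells. Eomes was at 81.2 TPM in primed cells and 115 TPM in R1 ESC (primed). Gata3, Elf5 and Prl3d1 were at no more than 4.59 TPM in any library. These genes were named after their values were seen. Of the 6 naïve markers, 6 were lower in primed than in 5C GFP+ cells. In the same comparison 5 of 6 primed markers were higher, and 3 of 6 general pluripotency markers were lower. Over all genes, 16.1% were lower and 13.7% higher there.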
